A study of Mus musculus with 2 samples.

Results

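The transcripts of 10 genes around the tumour suppressor p53 were measured in a mouse pro-B cell line and in a clone derived from it. The genes are Trp53, which encodes p53, its inhibitors Mdm2 and Mdm4, and the core p53 targets Gadd45a, Ccng1, Sesn1, Trp53inp1 and Zmat3. Gadd45b and Gadd45g, of the same family as Gadd45a, complete the set. They were chosen by name, as every spot that is no control and carries one of these gene names. This gave 12 probes for the 10 genes, with a pair of probes each for Mdm4 and Trp53inp1, out of 31709 gene names on the array. All 12 probes were well above background on both arrays, and none was saturated or marked as an outlier, so the 10 genes are among the 14815 genes measured on both arrays.

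RNA came from BaF/3 (#BEB1) cells and from the parental Ba/F3 cells, and each was hybridised to 1 Agilent whole mouse genome array, labelled with cyanine 3. Ba/F3 is a mouse pro-B cell line that depends on interleukin-3, and both lines were kept in RPMI medium with foetal calf serum and recombinant mouse interleukin-3. BaF/3 (#BEB1) is 1 clone. It was grown out of Ba/F3 cells infected with a retroviral cDNA library of CG4 cells, a rat oligodendrocyte precursor line, after repeated sorting for binding of an Ecrg4–Fc fusion protein. Any difference is therefore that of a single sorted and infected clone from its parental culture. There is 1 array per cell line, both on 1 slide, which leaves every difference without replicates and without a test.

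The value table and the scanner output give the 2 arrays to opposite cell lines. The one taken for BaF/3 (#BEB1) by the value table, but for parental Ba/F3 by the scanner output, is called array A here, and array B is the reverse. Across 39429 probes, the table's BaF/3 (#BEB1) column had a Pearson correlation of 0.999996 with array A and 0.982286 with array B. Every difference below is array A minus array B, which is BaF/3 (#BEB1) minus parental by the value table. By the scanner output it is parental minus BaF/3 (#BEB1), and every sign is then turned round. Olr1, which encodes LOX-1 and is the gene the study cloned from BaF/3 (#BEB1), had a signal of 12962 on array A, against 289.5 on array B, a difference of 5.01 on the log2 scale (32.1-fold). The likely assignment is thus that of the value table. Under it Olr1 is higher in the clone sorted for Ecrg4 binding, from which it was cloned. The study gives the same direction, but from its microarray, which is these same data, so that is no independent support. The files themselves do not settle the assignment.

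p53 is a transcription factor that is kept scarce in unstressed cells and is stabilised by DNA damage, oncogene activity and other stress. Mdm2 is the ubiquitin ligase that sends p53 to the proteasome, Mdm4 is a relative of Mdm2 that binds p53 and blocks its activity, and Mdm2 is itself a transcriptional target of p53, which closes a feedback loop. The targets of p53 arrest the cell cycle, repair DNA, restrain growth signalling or start apoptosis, and in B lineage cells and other blood cells p53 is best known for removing cells with damaged DNA.

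The probes behind the values that matter most are shown first, because for Mdm4 and Trp53inp1 the result depended on the probe. Each line gives the first 30 of the 60 bases of a probe, 5′ to 3′, and no base is in capitals since no part of a probe is singled out. Positions are those of the whole probe in mm9, as in the scanner output, and whether a probe lies in a coding exon or a UTR was not looked up, since the annotation used here is of another build.

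Trp53, chr11:69404204-69404263, plus strand: ccttagagttaaaggatgcccatgctacag
Mdm2, chr10:117126010-117126069, minus strand: ggcagcttcagtcccgatttacaataaagt
Mdm4, upstream probe, chr1:134888407-134888466, minus strand: acagatattttttctgagcagaaagctgaa
Mdm4, downstream probe, chr1:134886426-134886485, minus strand: gacccattaagctctgtttacagccttgaa
Trp53inp1, upstream probe, chr4:11092530-11092589, plus strand: aactcctgtcctggtctcagtgaggcgagt
Trp53inp1, downstream probe, chr4:11101174-11101233, plus strand: gtgtgtttatgggcacaatgttttctctca
Gadd45a, chr6:66985376-66985435, minus strand: aagggacaaaaactacaaagcactgcaaga
Gadd45b, chr10:80394367-80394426, plus strand: ctatatctctctagaggaacgctgagaccc
Gadd45g, chr13:51943733-51943792, plus strand: acttagccgactgcactgctctttcaaaaa

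The probe of Ccng1 lies at chr11:40562427-40562486 on the minus strand, that of Zmat3 at chr3:32233831-32233890 on the minus strand and that of Sesn1 at chr10:41628012-41628071 on the plus strand.

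p53 binds DNA as a tetramer, at a pair of half-sites that each follow a short degenerate consensus. Promoters of 8 of the 10 genes were matched by symbol in a RefSeq table of GRCm38.p6, as 10 windows of 300 bases (250 before and 50 after a transcript start), since Mdm4 and Sesn1 have more than 1 start. Each window was searched for an exact match to the p53 half-site consensus, which reads the same on both strands. A match was found in 5 of the 10 windows, those of Trp53, Mdm2, Gadd45a, Ccng1 and 1 of Sesn1, and in 8.36% of all 32851 windows. A match is a description of the letters and no evidence of binding. The best known p53 sites of Mdm2 and Gadd45a lie inside introns, outside these windows. The stretches around the matches follow, on the strand of the gene in GRCm38.p6, with the match in capitals.

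Trp53, chr11:69580254-69580313, plus strand: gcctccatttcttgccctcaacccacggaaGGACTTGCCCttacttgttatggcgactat
Mdm2, chr10:117710915-117710974, minus strand: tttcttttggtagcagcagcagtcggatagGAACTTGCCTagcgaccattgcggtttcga
Gadd45a, chr6:67037418-67037477, minus strand: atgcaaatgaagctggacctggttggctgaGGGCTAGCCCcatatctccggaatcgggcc
Ccng1, chr11:40755442-40755501, minus strand: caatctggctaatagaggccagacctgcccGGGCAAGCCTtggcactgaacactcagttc
Sesn1, chr10:41887236-41887295, plus strand: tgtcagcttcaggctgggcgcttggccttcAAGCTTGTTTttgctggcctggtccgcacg

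The matches began 75 bases before the start of Trp53, 186 before that of Mdm2, 40 before that of Gadd45a, 185 before that of Ccng1 and 173 before that of Sesn1. The windows of Gadd45b and Gadd45g held no half-site match, but both held TATAAA, the core of a TATA box, on the strand of the gene. It began 46 bases before the start of Gadd45b and 27 before that of Gadd45g, and these were 2 of the 10 windows, against 8.32% of all windows. With both strands searched it was in 3 of the 10 windows and 13.6% of all windows, the third being that of Trp53. Neither Mdm4 window held either match. The stretches of Gadd45b and Gadd45g are shown with TATAAA in capitals.

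Gadd45b, chr10:80930015-80930070, plus strand: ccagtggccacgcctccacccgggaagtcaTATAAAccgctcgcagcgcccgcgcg
Gadd45g, chr13:51846618-51846673, plus strand: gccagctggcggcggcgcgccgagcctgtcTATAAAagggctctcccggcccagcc

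Most of the 10 genes were brighter on array A, and the GADD45 family was split. Gadd45a and Mdm2 passed a 2-fold difference towards array A, Gadd45g and Gadd45b passed it towards array B, and the other 6 genes lay between these limits. That is 2 of 10 genes in the first direction, against 3.85% of all 14815 measured genes, and 2 of 10 in the second, against 7.30% of them. Of the 10 differences 7 were above 0 and 3 below, with a median of 0.49, and the median of all measured genes was −0.02. With 10 genes these counts describe the set and no more.

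**Figure D1:**
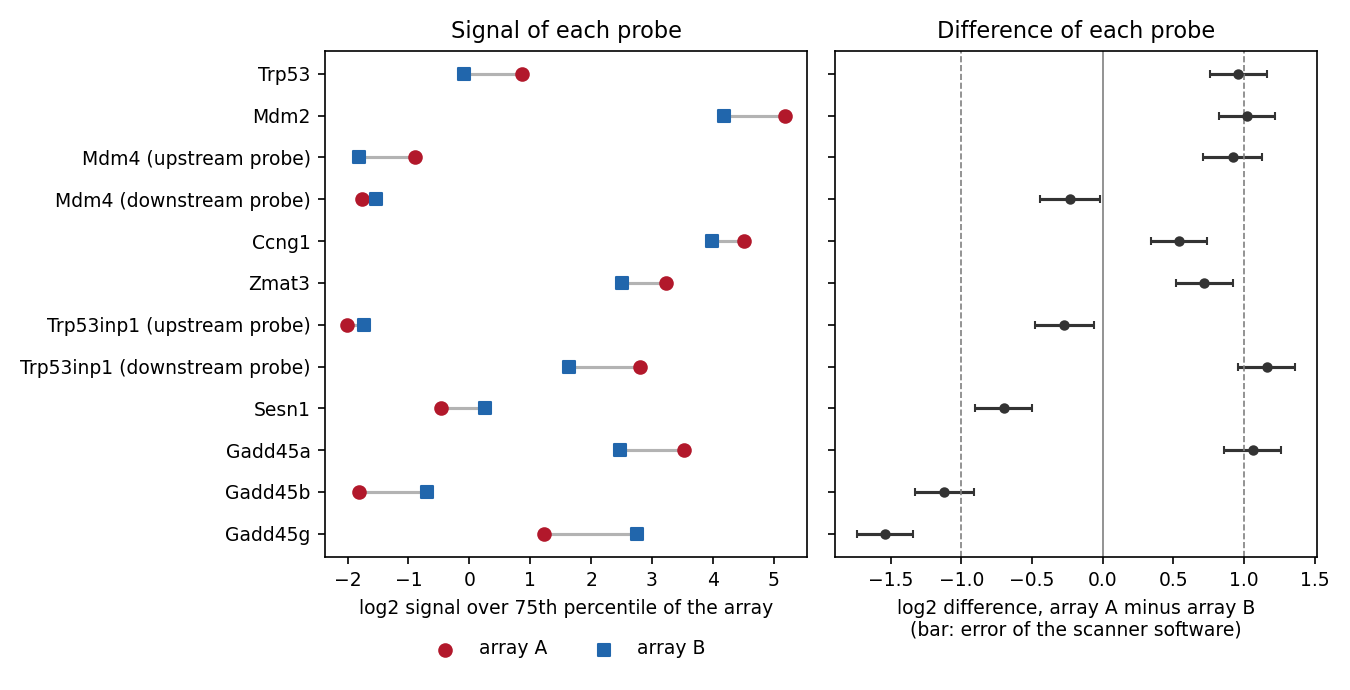
The 12 probes of the 10 genes. Left, the signal on array A (red circles) and array B (blue squares), as log2 of its ratio to that array's 75th percentile; right, the log2 difference between the arrays, A minus B, with the error given by the scanner software as bars and 2-fold as dashed lines. The probes of Mdm4, like those of Trp53inp1, lie on opposite sides of 0 with this scaling, and Gadd45g lies farthest to the left, at −1.54. The lower probes of Mdm4 and Trp53inp1, at −0.23 and −0.27, are close to their error of 0.21, and their sign depends on the scaling.

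Signals are quoted as the scanner software gave them, and differences after scaling each array to its 75th percentile, 1506 for array A and 1080 for array B. The error of a difference is the scanner software's own error of about 10% of the signal on each array. It covers the array only, and nothing here measures the spread between cultures or labellings. Among the 211 probes printed at 10 spots that were well above background at every spot, the median SD of the log2 difference between spots was 0.046. RNA was taken from whole cultures, so a difference in RNA per cell and a difference in the share of cells with the transcript cannot be told apart.

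Trp53 itself was brighter on array A. It had a signal of 2754 on array A, against 1015 on array B, or 0.87 and −0.09 on the scaled log2 scale. The difference was 0.96 ± 0.20 (1.95-fold), just short of 2-fold, and 621 measured genes lay further in the same direction. It passed 2-fold in 1 of 14 settings, with scaling to the median (1.25). Wrap53, whose gene overlaps the start of Trp53 on the opposite strand and whose protein serves telomerase and Cajal bodies, showed no difference of that size. Wrap53 read 10047 on array A, against 8011 on array B, a difference of −0.15 ± 0.20, which turned to 0.14 with scaling to the median.

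The difference of Mdm2 lay close to that of Trp53. Mdm2 read 55162 on array A, against 19557 on array B, or 5.19 and 4.18 on the scaled log2 scale, a difference of 1.02 ± 0.20 (2.02-fold). Mdm2 thus lay just past the 2-fold limit and Trp53 just short of it. Their differences were 0.06 ± 0.29 apart, a gap that ran between −0.02 and 0.10 across the settings. Mdm2 was no longer past 2-fold with quantile scaling or with the 75th percentile of bright probes, where its lowest value was 0.93.

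The probes of Mdm4 disagreed. The upstream probe read 808.3 on array A, against 306.2 on array B, a difference of 0.92 ± 0.21 (1.89-fold), close to that of Mdm2. The downstream probe, whose position starts 1981 bases further along the transcribed strand, read 445.4 on array A, against 374 on array B, a difference of −0.23 ± 0.21. The probes were 1.15 apart, a gap reached by 79 of the 2657 genes with 2 measured probes (2.97%), whose median gap was 0.24. The mean of both probes, 0.35 ± 0.15, is therefore no summary of either. The gap between Mdm2 and Mdm4, 0.67 ± 0.25 from that mean, ran between 0.10 and 0.73 across the settings, and it was smallest where the brightest probe stood for the gene.

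Cyclin G1, Zmat3 and Trp53inp1 were also brighter on array A in the mean, each by less than 2-fold. Ccng1 encodes cyclin G1, which brings the phosphatase PP2A to Mdm2. Ccng1 read 34525 on array A, against 17029 on array B, a difference of 0.54 ± 0.20 (1.45-fold). Zmat3, a zinc finger protein that binds RNA, read 14128 on array A, against 6136 on array B, a difference of 0.72 ± 0.20 (1.65-fold). Both differences were larger than the scanner error, yet 2149 measured genes lay further towards array A than Ccng1 and 1245 lay further than Zmat3. Scaling to the median gave 0.83 for Ccng1 and 1.02 for Zmat3, the only setting with Zmat3 past 2-fold.

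Trp53inp1 encodes a stress protein that acts with p53 in apoptosis and also in autophagy, and its probes disagreed more than those of Mdm4. The downstream probe read 10481 on array A, against 3366 on array B, a difference of 1.16 ± 0.20 (2.23-fold). The upstream probe, 8644 bases away in the genome, read 375 on array A, against 325.2 on array B, a difference of −0.27 ± 0.21. Their gap of 1.43 was reached by 32 of the 2657 genes with 2 measured probes (1.2%). The gene was past 2-fold only where its brightest probe, the downstream one, stood for it, and the mean of both was 0.44 ± 0.15.

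Sesn1 ran the other way. It encodes sestrin 1, which restrains the growth kinase complex mTORC1 when p53 is active. Sesn1 read 1097 on array A, against 1281 on array B, or −0.46 and 0.25 on the scaled log2 scale, a difference of −0.70 ± 0.20 (1.63-fold higher on array B). The raw signals differ little, and most of the difference comes with the scaling, since array A was the brighter array as a whole. It stayed below 0 in all settings, between −0.79 and −0.41.

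The GADD45 genes encode small acidic stress proteins that bind the kinase MAP3K4 and cyclin B1–Cdk1. Gadd45a is the classic p53 target of the family, Gadd45b is known for its induction by NF-κB and TGF-β, and Gadd45g for its induction by cytokines. Gadd45a read 17412 on array A, against 5990 on array B, or 3.53 and 2.47 on the scaled log2 scale, a difference of 1.06 ± 0.20 (2.09-fold). Gadd45b read 430.3 on array A, against 671.2 on array B, or −1.81 and −0.69, a difference of −1.12 ± 0.21 (2.17-fold higher on array B). Gadd45g read 3502 on array A, against 7287 on array B, or 1.22 and 2.75, a difference of −1.54 ± 0.20 (2.9-fold higher on array B), the largest of the 10 in size. Further towards array A than Gadd45a lay 485 measured genes, and further towards array B lay 832 beyond Gadd45b and 362 beyond Gadd45g.

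The split within the family does not depend on the factor by which an array is divided, since it shifts all 3 genes alike. The difference of Gadd45a lay 2.18 ± 0.29 above that of Gadd45b and 2.60 ± 0.29 above that of Gadd45g, on the log2 scale. These gaps ran between 2.03 and 2.18 and between 2.55 and 2.60 across the settings. Gadd45b and Gadd45g were 0.42 ± 0.29 apart. Gadd45g was past 2-fold in all 14 settings, Gadd45b in 13 and Gadd45a in 12. The exceptions were scaling to the median for Gadd45b (−0.83), and quantile scaling and the 75th percentile of bright probes for Gadd45a, with 0.97 as the lowest value. The floors, the filters and the choice of probe could not move these genes, each with 1 bright probe. Those settings repeat the main value.

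**Figure D2:**
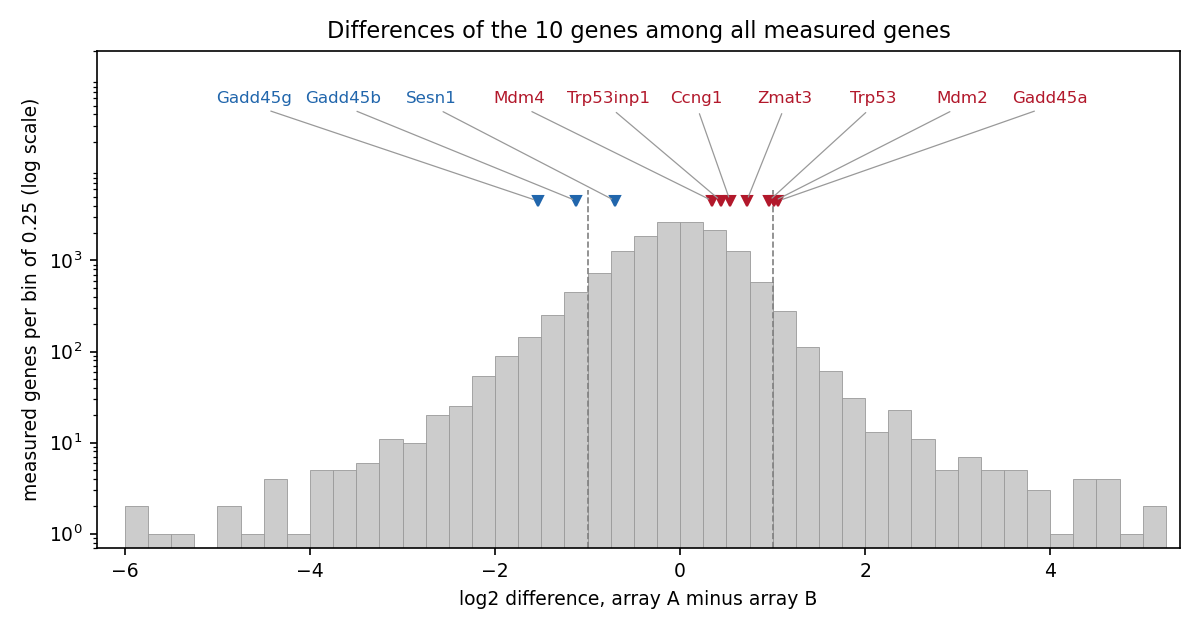
Differences of the 10 genes among all 14815 measured genes. The horizontal axis is the log2 difference between the arrays, A minus B, and grey bars count the measured genes per bin on a log scale, with triangles at the 10 genes (red above 0, blue below 0) and dashed lines at 2-fold. The 10 genes lie between −1.54 (Gadd45g) and 1.06 (Gadd45a), well inside the range of all genes.

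The choice of scaling moved all 10 genes, and the choice of probe moved Mdm4 and Trp53inp1 further still. Dividing by the median in place of the 75th percentile shifted all genes by 0.29 towards array A. The median of all measured genes was then 0.27. The median signal itself was 32.6 for A and 28.6 for B, near the dimmest signals well above background, 27.6 and 22.9. Median scaling thus divides each array by a signal near its background. Under median scaling 4 of the 10 genes, Trp53, Mdm2, Gadd45a and Zmat3, were past 2-fold towards array A and Gadd45g alone towards array B. The shares of all measured genes moved with them, to 8.86% past 2-fold towards array A and 3.96% towards array B. None of the 10 genes changed direction in any of the 14 settings, but the floors and the filters could not move any of them.

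**Figure D3:**
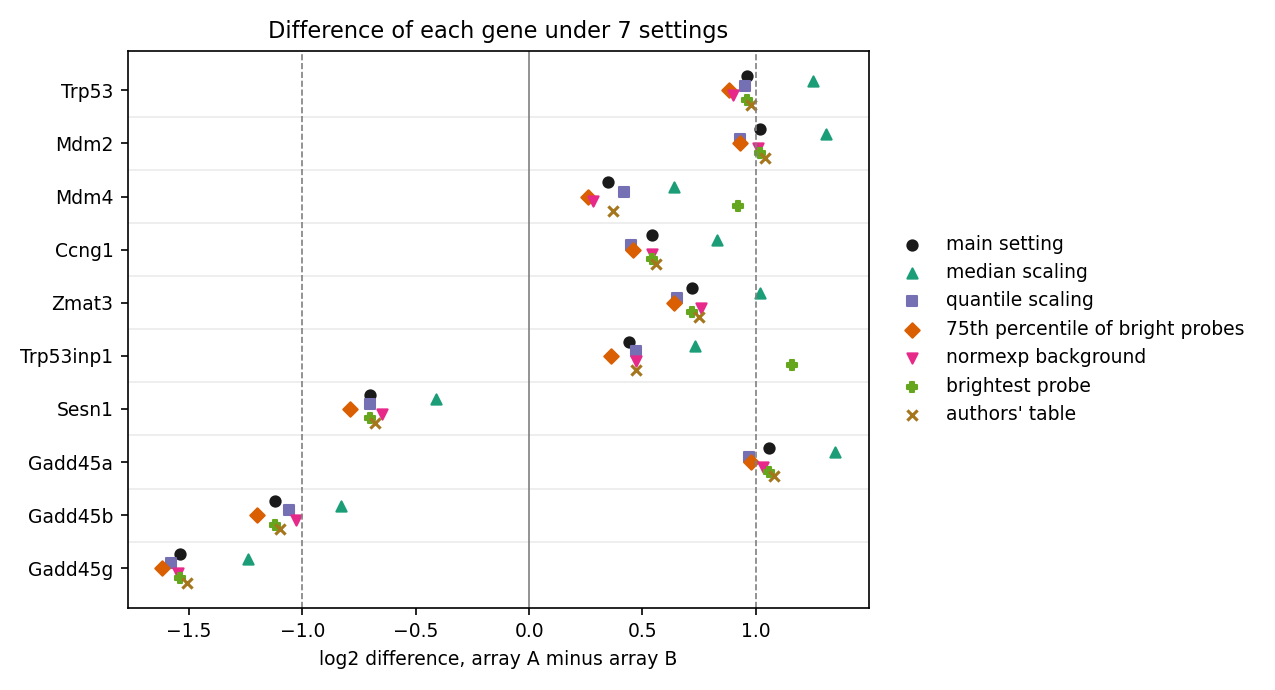
Log2 difference between the arrays, A minus B, for each of the 10 genes under 7 settings, 1 symbol per setting, with 0 as a solid line and 2-fold as dashed lines. Scaling to the median lies to the right of the other scalings for every gene, the brightest probe moves Mdm4 to 0.92 and Trp53inp1 to 1.16, and no gene crosses 0.

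Of 43 other p53 targets on the array, 36 were measured on both arrays. Past 2-fold lay 4 of them towards array A and 1 towards array B, against the 3.85% and 7.30% of all measured genes, and 18 were above 0 and 18 below, with a median of 0.02. Tallies around 0 follow the scaling, and with scaling to the median 27 of the 36 were above 0 and 9 below. Past 2-fold then lay 6 towards array A and 0 towards array B, against 8.86% and 3.96% of all measured genes. The median of all measured genes was itself 0.27 with that scaling.

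Among 12 measured targets in arrest and feedback, 3 were past 2-fold towards array A and none towards array B, against 3.85% and 7.30% of all measured genes. Their median was 0.28. Btg2, an antiproliferative gene, read 1908 on array A, against 249.3 on array B, a difference of 2.46 ± 0.21 (5.49-fold). Tigar, a phosphatase that lowers glycolysis, had a difference of 1.16 ± 0.15 over 2 probes (1.07 and 1.25), and the kinase gene Plk3 one of 1.14 ± 0.20. Cdkn1a, which encodes the cell cycle inhibitor p21 and is the best known p53 target, again depended on the probe. One of its probes read 51655 on array A, against 17392 on array B (1.09), and the other read 1279 on array A, against 864.5 on array B (0.09), with 0.59 ± 0.11 for the gene.

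Among 10 measured targets in DNA repair and nucleotide supply, 8 lay below 0 and 2 above, with a median of −0.27, and with scaling to the median 5 lay on each side. Rrm2b, the p53-inducible subunit of ribonucleotide reductase, was the exception in size, with a signal of 363.3 on array A, against 92.54 on array B, and a difference of 1.49 ± 0.22 (2.82-fold). With normexp background correction it was 0.91 and no longer past 2-fold, as was Tigar, at 0.96. Polh, the translesion polymerase eta, was just past 2-fold the other way, at −1.01 ± 0.21, and inside it with scaling to the median (−0.72), quantile scaling (−0.87) or normexp (−0.88). Of 14 measured apoptosis targets none was past 2-fold in either direction, against 3.85% of all measured genes towards array A and 7.30% towards array B. Of the 14, 7 lay above 0 and 7 below, and the median was 0.02. With scaling to the median 11 lay above 0 and 3 below, and the death receptor gene Fas, also named after its values were seen, was past 2-fold at 1.12, against 0.83. Among them were Bax, at 0.09 ± 0.20, and Bbc3, which encodes PUMA, at 0.62 ± 0.20, both named after their values were seen. Of the other 5 apoptosis targets, 4 were not above background on either array and Eda2r was on array A only, where its bound was under 2-fold.

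**Figure D4:**
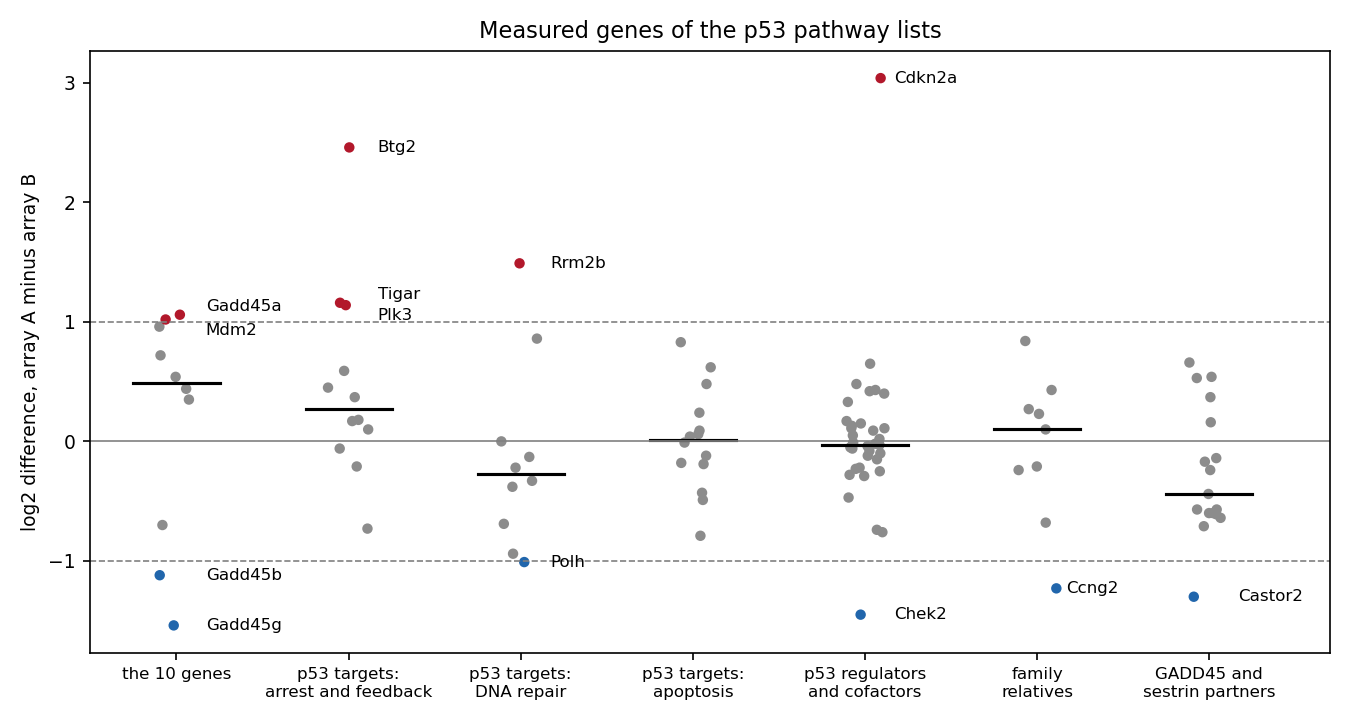
Log2 difference between the arrays, A minus B, for the measured genes of each list, 1 point per gene, with the median of the list as a black line and 2-fold as dashed lines. Points past 2-fold are named, in red towards array A and in blue towards array B, and Cdkn2a (3.04) and Btg2 (2.46) lie farthest from 0.

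Upstream of p53, 35 of 37 listed regulators and cofactors were measured, with 15 above 0 and 20 below (30 and 5 with scaling to the median) and a median of −0.03. Past 2-fold lay 1 in each direction, against 3.85% of all measured genes towards array A and 7.30% towards array B. Cdkn2a, whose locus encodes p16Ink4a and also Arf, the inhibitor of Mdm2, was much brighter on array A. Its probes read 15051 and 1413 on array A, against 1520 and 106.4 on array B, with differences of 2.83 and 3.25, and the gene was at 3.04 ± 0.15 (8.23-fold). Which of the transcripts the probes read was not looked up. Chek2, a kinase that passes DNA damage signals to p53, read 168.7 on array A, against 329.9 on array B, a difference of −1.45 ± 0.21 (2.73-fold higher on array B).

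Of 10 family relatives of the 10 genes, 9 were measured and 1 was past 2-fold, Ccng2, the gene of cyclin G2, at −1.23 ± 0.22, or −0.94 with scaling to the median, where Ccng1 had 0.54 and 0.83. The p53 relatives Trp63 and Trp73 were at 0.27 ± 0.20 and −0.21 ± 0.38, the last with signals of 47.2 on array A, against 39.24 on array B, near the background. Of 19 genes whose products act with GADD45 proteins or sestrins, or elsewhere in mTORC1 control, 17 were measured. Of these 17, 12 lay below 0 (9 with scaling to the median), with a median of −0.44. Castor2, of the arginine sensing arm of mTORC1 control, was the only one past 2-fold, at −1.30 ± 0.20. Of all measured genes 3.85% were past 2-fold towards array A and 7.30% towards array B, and counts this small describe the lists and no more. These lists, like the 10 genes, were chosen with earlier results of the same arrays known.

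The arrays differed in other cell type markers too. Of 13 Ba/F3 pro-B markers on the array, 6 were measured, Il3ra and Ptprc above 0 and Csf2rb, Csf2rb2, Cd79b and Vpreb1 past 2-fold below it, and 7 were not above background on either array, among them Ebf1, Pax5, Cd79a, Il7r, Rag1 and Blnk. The summed scaled signal of the 13 was 79.5 on array A, against 171 on array B. The sum over 8 neutrophil markers was 0.764 on array A, against 23.4 on array B, that over 7 erythroid markers 9.88 against 24.7, and these 3 sums kept their direction without the gene that differed most. For the pro-B markers that gene was Csf2rb2, and the rest, 41.9 on array A against 81.8 on array B, still held the bright Csf2rb. A sum without both was not taken. The next brightest, Il3ra (3.59 on array A, against 3.18 on array B, on the scaled log2 scale) and Ptprc (2.80 against 2.05), were higher on array A. Cd79b (−1.85 against 0.45) and Vpreb1 (−4.57 against −3.18) were higher on array B, but dimmer. The direction of the pro-B sum thus rests on Csf2rb and Csf2rb2 and is not that of the list as a whole. Each of the remaining sums rested on 1 gene. That over 8 macrophage markers was 8.21 on array A, against 4.42 on array B, but 2.98 against 3.31 without Fcgr1, and that over 8 T and NK cell markers was 1.28 on array A, against 2.13 on array B, but 1.11 against 1.02 without Lat, with 3 of the 4 measured ones above 0. Of 8 mast cell markers, Cpa3 and Cma1 were past 2-fold towards array B, Fcer1a was above background on array B only (at least 45.7-fold) and Hdc was past 2-fold towards array A, and their sum was 2.0 on array A, against 6.56 on array B, but 1.89 against 1.65 without Cpa3. Oligodendrocyte precursor markers summed to 0.385 on array A, against 0.436 on array B, and were equal without Cspg4. The defining markers Kit, Pdgfra, Olig1, Olig2 and Sox10 were not above background on either array. The part of these markers in the differences of the 10 genes was not tested.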

How the data were processed

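Total RNA of each cell line was labelled with cyanine 3 after amplification and read on 1 Agilent array. Per the labels, spot intensity in the deposited scanner files comes from Agilent Feature Extraction 9.5.1.1, after background subtraction. They also deposited a value table on a log2 scale, made by the authors with a floor of 1.0 on the intensity and scaling of each array to its 75th percentile. The median of its BaF/3 (#BEB1) column is −5.44 and that of its control column −5.20. It is not centred per gene, and its assignment to the cell lines, opposite to that of the scanner files, is likely but not settled.

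Here, the processed signal of 43020 spots of 39429 probes that are not controls was divided by each array's 75th percentile (1506 on array A, 1080 on array B) and put on a log2 scale, and spots of a probe were averaged. On array A 49.4% and on array B 49.9% of probes were well above background, and the number of arrays limits the precision. A gene took the mean over its probes well above background on both arrays. Probes outside the 10 genes were named through a RefSeq table of GRCm38.p6 (26055 by accession, 3195 by symbol, 930 by an older symbol), and 9249 kept the scanner name. Where a gene was above background on 1 array only, a bound was taken against the dimmest probe that cleared the background on the other array (27.6 on array A, 22.9 on array B) or its own signal, whichever was higher.

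No test is possible with 1 array per group, so 2-fold is a rule of size, and the share of all measured genes past it is given beside it. The 10 genes and all lists were chosen with earlier results of these data known. Named are the 10 genes, Cdkn1a, Wrap53, Trp63, Trp73, Cdkn2a and Olr1, up to 6 genes per list and direction past 2-fold, and cell type markers. Bax, Bbc3, Fas and Eda2r fall outside this rule and were named after their values were seen. The steps were tested on simulated arrays, with planted changes larger than that of any of the 10 genes. That test does not show how calls near 2-fold hold up. Alternatives were the scaling, floor, background correction, filter, outlier marks, choice of probe, probe naming, the authors' table and a 3-fold threshold. Normexp (offset 50) and quantile scaling were run in limma 3.58.1 under R 4.3.3, and all else in Python 3.11.15 (numpy 2.4.6, pandas 2.3.3, matplotlib 3.10.9).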

Additional observations from a re-analysis of the deposited data

How the results depend on the processing

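No paired analysis was possible because there is 1 array per cell line, and for the same reason no array could be left out. Counts past 2-fold that moved by over 1.5 times, or to or away from 0, are these. Scaling to the median gave 4 of the 10 genes towards array A and 1 towards array B, 0 other targets towards array B, 1 family relative towards array A and 0 towards array B, and a median of the 10 genes of 0.78; of all genes past 2-fold, 69.1% were then higher on array A, against 34.5%. Scaling to the 75th percentile of bright probes (well above background on each array) gave 0 of the 10 genes towards array A and 2 other targets towards array B, and quantile scaling gave 0 and 0. With bright probes 3.06% of all measured genes were past 2-fold towards array A and 8.63% towards array B. With quantile scaling these shares were 4.42% and 6.18%. Normexp gave 2 other targets towards array A and 0 towards array B. Leaving out spots with outlier marks, the authors' table, and the 75th percentile over probes in place of spots, the last chosen after seeing the data, each gave 0 other targets towards array B. With the brightest probe the median of the 10 genes was 0.82. At 3-fold, 0 of the 10 genes passed in either direction, 1 other target passed towards array A and 0 towards array B, and 0 regulators, partners and relatives passed towards array B. In each case the rule itself, the scaling or the probe differed, and no cause beyond that was tested. The median used for scaling is a signal near the background of each array. Over all measured genes, 570 were past 2-fold towards array A and 1082 towards array B, against 1313 and 587 with scaling to the median, 385 and 707 with normexp, 156 and 333 at 3-fold, 1133 and 1876 of 16512 genes above background on at least 1 array, and 1491 and 2777 of 31709 with no filter on dim probes. The other 134 values stayed within 1.5 times the count or, for the median of the 10 genes, within their median scanner error, though not all were equal: the brightest probe gave 3 of the 10 genes towards array A, and other targets towards array A numbered 6 with scaling to the median and 5 with quantile scaling. Of 140 values for single genes, 128 stayed within the scanner error of the gene. Many of the 128 could not move, since the floors and filters leave probes well above background unchanged. None of the 140 values changed direction, although Wrap53 did with scaling to the median (0.14 against −0.15). Naming probes through the RefSeq table was tried for the 10 genes only, since the other lists already use it.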
